A study of Homo sapiens with 6 samples.

Results

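De novo purine synthesis builds the purine ring on phosphoribosyl pyrophosphate and ends in AMP and GMP. The genes described here are PPAT, GART, PFAS, PAICS, ADSL, ATIC, IMPDH1, IMPDH2, GMPS and ADSS, chosen by symbol alone. Of these 10 symbols 8 had values, in 17 of the 22442 deposited rows and as 8 of 12438 gene symbols. Densities of PPAT and GART were not analysed here. The samples were A375 cells, an established human malignant melanoma line, and the labels name no genetic change. Cells received DMSO (the solvent control), 25 µM leflunomide or 25 µM A771726 for 48 h, with 2 libraries in each group and 6 in all. Leflunomide is a prodrug with an isoxazole ring, and A771726 is its active, ring-opened metabolite. A771726 inhibits dihydroorotate dehydrogenase (DHODH), an enzyme of pyrimidine synthesis, and leflunomide acts on it through this metabolite, so the purine genes serve as a contrast to that pathway. The assay, GRO-seq (global run-on sequencing), lets polymerases already on a gene run on in isolated nuclei with labelled nucleotides, so its reads mark RNA being made at that moment.

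PPAT, the amidotransferase that commits phosphoribosyl pyrophosphate to the pathway, and GART, PFAS, PAICS, ADSL and ATIC build inosine monophosphate (IMP). IMPDH1 and IMPDH2 are the isozymes that oxidise IMP, the rate-limiting step toward GMP, and GMPS completes GMP. ADSS takes IMP toward AMP, and ADSL acts again in that branch. Proliferating cells draw heavily on this pathway for nucleic acid synthesis, and the pathway is regulated mainly by feedback from its products on PPAT.

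PPAT and PAICS lie head to head and share a promoter region, so their sequences are shown with that of ATIC, the other gene of the set whose promoter holds the E-box CACGTG (in capitals; the motif reads the same on both strands). The windows are 300 bases long and begin 250 bases before the RefSeq start, on GRCh38.p14: PPAT at chr4:56435566-56435865 (minus strand), PAICS at chr4:56435502-56435801 (plus strand) and ATIC at chr2:215311809-215312108 (plus strand).
PPAT: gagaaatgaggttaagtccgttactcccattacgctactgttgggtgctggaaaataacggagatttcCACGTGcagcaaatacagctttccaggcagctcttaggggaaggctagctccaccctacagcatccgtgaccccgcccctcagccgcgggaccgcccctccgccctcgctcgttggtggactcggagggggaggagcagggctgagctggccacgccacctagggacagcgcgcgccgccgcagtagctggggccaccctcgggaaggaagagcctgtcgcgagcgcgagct
PAICS: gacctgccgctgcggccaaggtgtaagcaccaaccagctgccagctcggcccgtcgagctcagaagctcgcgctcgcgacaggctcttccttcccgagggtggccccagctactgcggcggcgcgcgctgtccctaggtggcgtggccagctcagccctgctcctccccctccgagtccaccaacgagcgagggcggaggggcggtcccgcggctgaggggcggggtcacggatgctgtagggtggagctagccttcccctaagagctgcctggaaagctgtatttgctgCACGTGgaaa
ATIC: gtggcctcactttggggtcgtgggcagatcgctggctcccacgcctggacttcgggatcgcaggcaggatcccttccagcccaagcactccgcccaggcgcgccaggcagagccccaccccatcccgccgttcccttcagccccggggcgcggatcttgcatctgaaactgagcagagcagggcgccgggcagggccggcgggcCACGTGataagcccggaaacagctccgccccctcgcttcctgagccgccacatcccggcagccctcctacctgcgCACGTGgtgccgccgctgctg
The PPAT and PAICS windows overlap by 236 bases, identical on opposite strands, with 136 bases between the starts, so they hold the same E-box. ATIC holds 2. RefSeq promoter windows matched 8 of the 10 symbols, 13 windows in all (ADSS under its current symbol ADSS2). ADSL and IMPDH2 had no entry. CACGTG was found in 3 of these 13 windows, 1 for each of 3 genes, against 7.26% of all 35116 windows. The NRF1 consensus motif was in 0 of the 13 windows (1.24% of all). TATAAA was in 1 window, of GART (11.5% of all), and CCAAT was in 3 windows, all of GART (34.6% of all). All motifs were searched on both strands. A match describes letters in a window and is not a bound site. The densities below use hg18 and were joined to these sequences by gene, not by position.

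The deposited values are the authors' group means of read density, whose unit is not named. Library values were recovered from the means, and library 1 is the library of a group in which 1 promoter read has the smaller density. Library numbers pair nothing across groups. Order among genes is by density, which is taken to be per length.

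IMPDH2, the IMP dehydrogenase isozyme known to be raised in proliferating and cancer cells, had by far the highest gene body density of the set. Its DMSO libraries were at 0.3785 and 0.3032, the leflunomide libraries at 0.2939 and 0.2903, and the A771726 libraries at 0.2205 and 0.1458. The A771726 libraries of this gene could not be ordered. Both A771726 libraries lay below all other libraries, and the leflunomide libraries lay just below the DMSO libraries. The DMSO mean of 0.341 was at the 98.4th percentile of gene symbols and 5.66 times that of PAICS, the next gene in order. With the IMPDH1 entry of highest gene body density, the ratio of IMPDH2 to IMPDH1 mean density was 10.9 in DMSO. It was 14.2 with leflunomide and 10.5 with A771726.

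**Figure D1:**
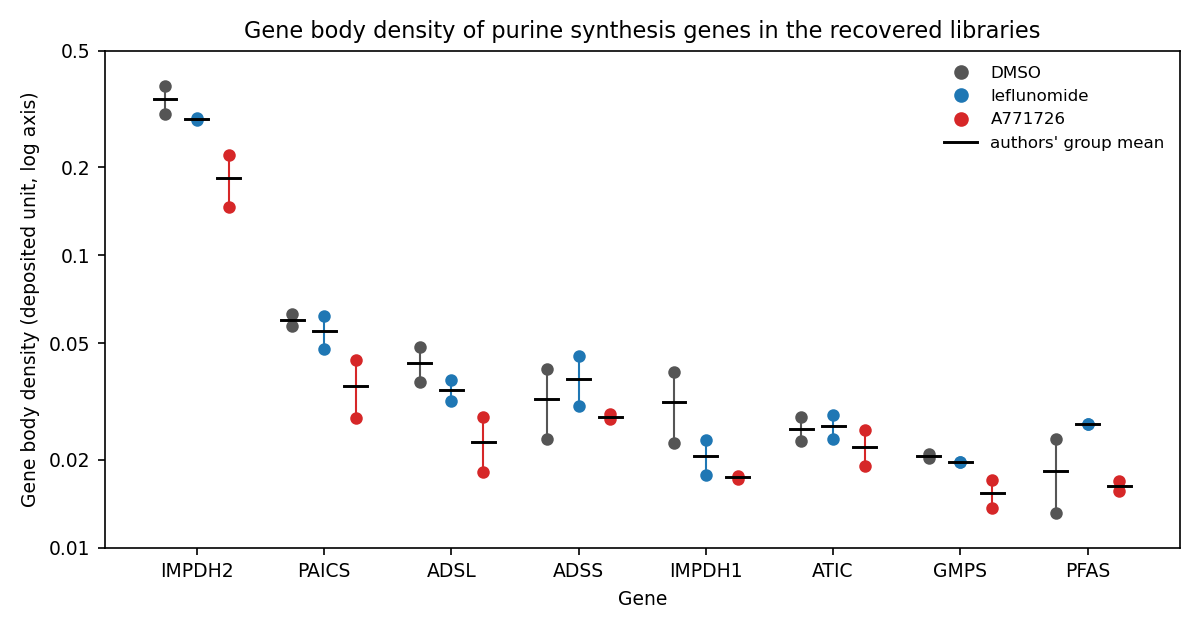
Gene body density (deposited unit, log axis) for each gene with values in the 2 recovered libraries of DMSO, leflunomide and A771726 (points), with the authors' group means as bars. Only IMPDH2, PAICS, ADSL, IMPDH1 and GMPS have both A771726 libraries below both DMSO libraries.

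The remaining genes spanned DMSO means from 0.0184 for PFAS to 0.0603 for PAICS. In DMSO the order after IMPDH2 was PAICS, ADSL, ADSS, IMPDH1, ATIC, GMPS and PFAS. The library ranges of neighbours overlapped for ADSL with ADSS, ADSS with IMPDH1, IMPDH1 with ATIC and GMPS with PFAS, so those ranks are not resolved. PAICS and ADSL did not overlap, nor did ATIC and GMPS. With A771726 PAICS overlapped ADSS, and IMPDH2 was still apart from all others.

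Among the enzymes that lead to IMP, PFAS, which amidates the growing ring precursor, had DMSO gene body densities of 0.0132 and 0.0235. Its leflunomide libraries were at 0.0265 and 0.0264 and its A771726 libraries at 0.0169 and 0.0157. Leflunomide libraries were above both DMSO libraries, and A771726 libraries lay within the DMSO range. PAICS, which joins the carboxylase and the succinocarboxamide synthetase in one protein, was at 0.0632 and 0.0573 in DMSO, 0.0622 and 0.0478 after leflunomide, and 0.0438 and 0.0278 after A771726. Only the A771726 libraries lay apart from DMSO in this entry. In the other deposited PAICS entry the leflunomide libraries, 0.0548 and 0.0452, also lay below the DMSO libraries, 0.0621 and 0.0558. ADSL, the lyase that releases fumarate, was at 0.0484 and 0.0370 in DMSO, 0.0375 and 0.0317 after leflunomide, and 0.0279 and 0.0181 after A771726. Its A771726 libraries were below every other library. ATIC, which adds the last carbon and closes the ring, was at 0.0279 and 0.0231, then 0.0236 and 0.0284, then 0.0253 and 0.0190, and the 3 groups overlapped.

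In the GMP and AMP branches, IMPDH1 was at 0.0400 and 0.0228 in DMSO, 0.0178 and 0.0234 after leflunomide, and 0.0176 and 0.0172 after A771726. Its A771726 libraries were below every other library, and the leflunomide and DMSO libraries overlapped. In the other deposited IMPDH1 entry the DMSO libraries were at 0.0373 and 0.0199 and the leflunomide libraries at 0.0214 and 0.0232. The A771726 libraries of that entry were at 0.0198 and 0.0138. GMPS, the amidating GMP synthetase, was at 0.0202 and 0.0210 in DMSO, 0.0197 in each leflunomide library, and 0.0171 and 0.0137 with A771726. Its values were lower in each compound than in DMSO with no overlap. ADSS, the adenylosuccinate synthase, was at 0.0408 and 0.0236, then 0.0305 and 0.0453, then 0.0286 and 0.0275. Its DMSO libraries enclosed both A771726 libraries.

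With leflunomide no gene of the set passed the test in gene bodies. Limma (adjusted p below 0.05 over all genes tested, Benjamini-Hochberg) called 0 of 8 members and 0% of 4854 genes. These 4854 are the genes past the filter whose libraries could be recovered in every group. Recovery needs a promoter density above 0 in each group, so shares over the 4854 leave out genes without promoter reads. At an unadjusted p below 0.05 it called 0 of 8 members and 4.9% of genes. Member changes ran from −0.56 for IMPDH1 to 0.48 for PFAS, as log2 of the group means. IMPDH1 differed by −0.52 in the fit, and by −0.27 (−1.17 to 0.63) in its other deposited entry. The largest in the fit was PFAS, 0.53 (95% interval −0.29 to 1.35), with an adjusted p of 0.999. The median over the 8 members was −0.09 and over the 8706 genes past the filter −0.06, with 4 members on each side of the median gene. None was 2-fold higher or lower, against 1.84% and 4.49% of genes. Both leflunomide libraries were above both DMSO libraries in 1 of 8 members, PFAS (14.5% of genes), and below in 2, IMPDH2 and GMPS (20.9%). PAICS also lay below in its other entry, which these counts do not use.

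With A771726 every member had a lower group mean than in DMSO, as did 85.5% of all genes. The median gene differed by −0.52 and the median over members by −0.55. Over the 7 members with known library order, which leave out IMPDH2, the median was −0.38, against −0.54 over 3496 genes. Without A771726 library 2 these were −0.24 and −0.37. Relative to the median gene, 4 members lay above it (PFAS by 0.37, ATIC and ADSS by 0.33, GMPS by 0.15) and 4 below (IMPDH2 by −0.37, ADSL by −0.31, IMPDH1 by −0.26, PAICS by −0.20). Limma called 0 of 8 members and 0% of 4854 genes. At an unadjusted p below 0.05 limma called 2 of 8 members, IMPDH2 and ADSL, against 21.9% of genes. Their unadjusted p-values were 0.0154 and 0.0447. With libraries centred on the median gene, limma called 0 of 7 members at an unadjusted p below 0.05, against 8.09% of genes. ADSL then differed by −0.31 with an unadjusted p of 0.302, and IMPDH2 could not be fitted. The fits that leave out a library also lack IMPDH2. In the main fit IMPDH2 differed by −0.91 (−1.59 to −0.23), with a limma adjusted p of 0.173. ADSL differed by −0.85 (−1.67 to −0.03), with a limma adjusted p of 0.219. PAICS and IMPDH1 differed by −0.75 and −0.73, with limma adjusted p-values of 0.258 and 0.270 and intervals that held 0. For GMPS, ATIC, ADSS and PFAS the difference was between −0.38 and −0.11 with limma adjusted p-values from 0.432 to 0.851. No member was 2-fold lower, against 18.5% of genes, or 2-fold higher (0.839%). Both A771726 libraries lay below both DMSO libraries in 5 of 8 members (IMPDH2, PAICS, ADSL, IMPDH1 and GMPS), against 55.2% of genes, and above them in 0 of 8 (2.12%).

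A771726 and leflunomide, at the same dose and time, gave differences between −0.67 (IMPDH2) and −0.21 (ATIC) in the group means, all 8 in the same direction, as for 84.7% of genes. The median over members was −0.48 and over all genes −0.47. Limma called 0 of 8 members and 0% of genes. At an unadjusted p below 0.05 limma called 1 of 8 members, IMPDH2, against 15.5% of genes. Its unadjusted p was 0.0456. Its difference of −0.70 had an interval from −1.38 to −0.02 and a limma adjusted p of 0.317. The intervals of the other members held 0, for example −1.45 to 0.19 for PFAS, so these data neither separate the compounds nor show them alike. Both A771726 libraries were below both leflunomide libraries in 7 of 8 members, all but ATIC, against 55.3% of genes, and above them in 0 of 8 (2.35%). No member differed 2-fold in either direction (1.03% of genes higher, 12.4% lower). The comparisons with DMSO share the DMSO libraries.

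**Figure D2:**
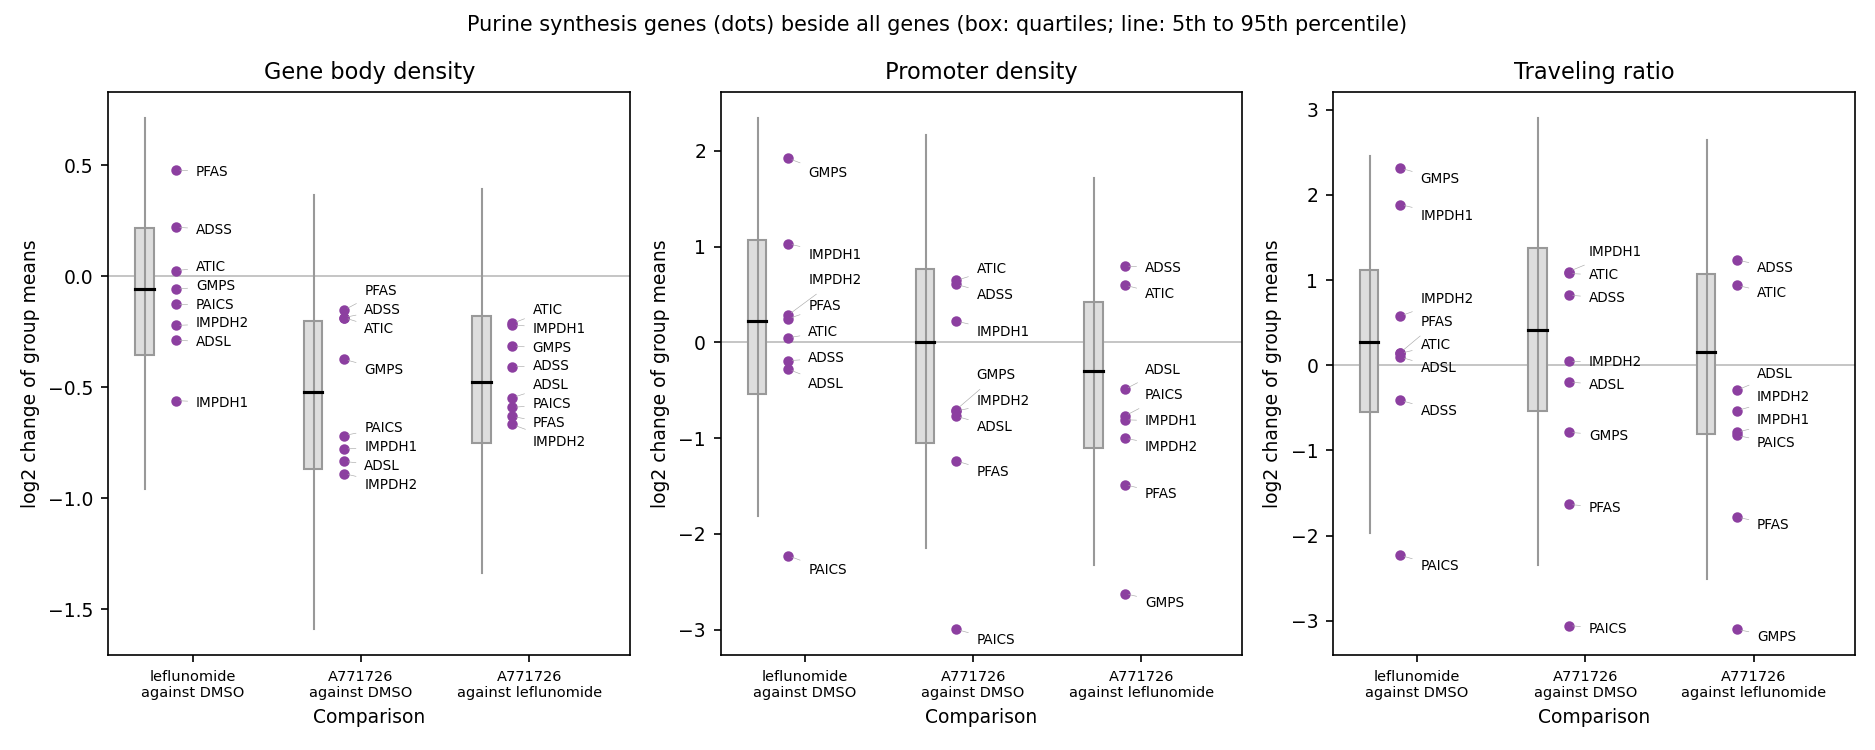
Log2 change of the authors' group means of gene body density, promoter density and traveling ratio for the 3 comparisons. Purple points are the 8 purine genes, and the grey box and line give the quartiles and the 5th to 95th percentile over all genes past the filter. In gene bodies the members spread around the black median line. With leflunomide, PAICS and GMPS lie farthest from it in promoters and ratios.

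A771726 library 1 was above library 2 in gene bodies of all 7 members whose libraries could be ordered, as it was in 69.5% of 3496 genes. Over those genes the 2 DMSO libraries had median gene body densities of 0.0397 and 0.0341, the leflunomide libraries 0.0368 and 0.0341, and the A771726 libraries 0.0271 and 0.0223. How libraries were scaled is not given in the sources used here, so a lower density in all genes and a lower scale cannot be told apart. Fewer cells and less nascent RNA per cell cannot be told apart either. SOX10, a melanocyte lineage gene, was at 0.329, 0.330 and 0.273 in DMSO, leflunomide and A771726. In the same order MITF was at 0.0123, 0.0226 and 0.0156, MLANA at 0.0152, 0.00485 and 0.0046, and PMEL at 0.0104, 0.0224 and 0.0172. Of markers of dedifferentiated melanoma, AXL was at 0.0544, 0.0675 and 0.0544, NGFR at 0.0134, 0.0101 and 0.0069, and EGFR at 0.0026, 0.00475 and 0.00295. Their part in the results was not tested. TYR, TYRP1, DCT and S100B had no row, so 4 of 8 lineage markers were measured. Of 7 epithelial, blood, fibroblast and endothelial markers only CDH1, COL1A1 and PECAM1 had rows, so blood markers were not measured. These 3 summed to 0.0110, 0.0124 and 0.0106.

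Promoter densities rested on few reads, from 0 to 14 in a library where values were whole reads. A single read equalled a density of 0.0438 or 0.0520 in DMSO, of 0.0347 or 0.0376 in the leflunomide libraries, and of 0.0241 or 0.0313 in the A771726 libraries (library 1 or 2). A count of 0 in A771726 library 2 allows a density of up to 0.0939 (3 reads), counting error only. PAICS had 2 sets of deposited windows. By GENCODE v29 on GRCh38, NM_006452 starts at position 56435749 of chromosome 4, which is 3 bases from the RefSeq start of the window shown above, and NM_001079525 and NM_001079524 start 389 and 403 bases downstream. At NM_006452 the DMSO libraries had promoter densities of 0.3501 and 0.4679 (8 and 9 reads), the leflunomide libraries 0.0347 and 0.1128 (1 and 3 reads) and the A771726 libraries 0.0722 and 0 (3 and 0 reads). All 4 compound-treated libraries were below both DMSO libraries. The 17 DMSO reads have an exact Poisson interval of 9.90 to 27.2, and the 4 leflunomide and 3 A771726 reads intervals of 1.09 to 10.2 and 0.619 to 8.77. These counts are not scaled between libraries.

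At the downstream PAICS start (NM_001079524) the DMSO libraries were at 0.1751 and 0.2080, the leflunomide libraries at 0.3815 and 0.2256 and the A771726 libraries at 0.1203 and 0. Leflunomide was above DMSO at this start and below it at the other, so the entry chosen decides the direction. In limma the upstream start differed by −2.36 with leflunomide (−5.05 to 0.33) and by −3.42 with A771726 (−6.12 to −0.73), with an adjusted p of 0.996 and 0.994. The unadjusted p for A771726 was 0.0128. The downstream start differed by 0.58 (−1.79 to 2.95) and −2.09 (−4.47 to 0.28), with a limma adjusted p of 0.996 in each. The strand used in counting is not given in the sources used here, so reads of PPAT and PAICS at the shared promoter cannot be told apart.

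**Figure D3:**
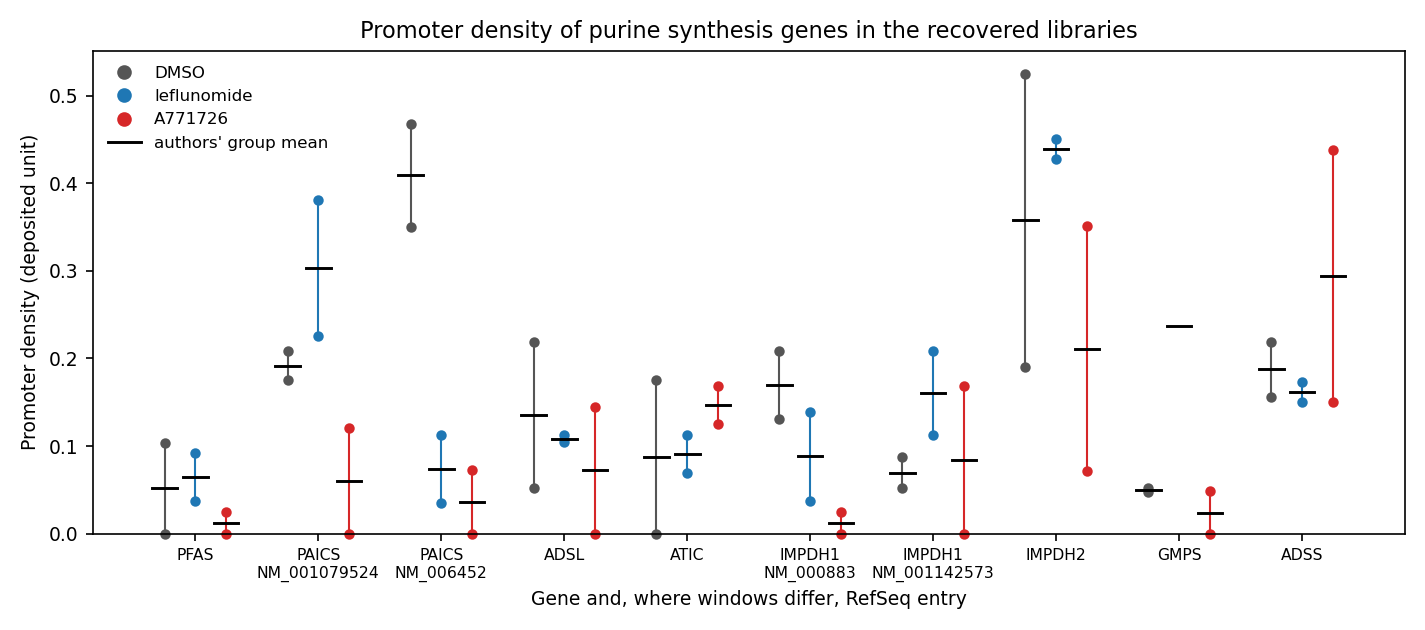
Promoter density (deposited unit) by gene and, where windows differ, by RefSeq entry, in the 2 recovered libraries of each group (points) with the authors' mean as a bar. At PAICS NM_006452 both DMSO points are above all others, and at NM_001079524 the leflunomide points are highest. GMPS with leflunomide has a mean of 0.238 only.

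IMPDH1 also had 2 sets of windows. The entry used, NM_001142573, starts 4040 bases downstream of NM_183243, and NM_000883 starts 270 bases upstream of NM_183243. NM_183243 has the same deposited values as NM_000883, so these GENCODE starts need not be those of the deposited windows. The same holds for the 2 downstream PAICS entries. NM_001142573 was at 0.0875 and 0.0520 in DMSO, 0.2081 and 0.1128 after leflunomide and 0.1684 and 0 after A771726. NM_000883 was at 0.1313 and 0.2080, then 0.1387 and 0.0376, then 0.0241 and 0. With leflunomide the first start was higher than in DMSO and the second lower on average, on 9 and 5 reads. In limma neither differed beyond its interval, 1.01 (−1.86 to 3.87) and −0.98 (−4.00 to 2.03).

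The other promoters were as sparse. ADSL was at 0.2188 and 0.0520 in DMSO, 0.1041 and 0.1128 after leflunomide and 0.1443 and 0 after A771726. ADSS was at 0.2188 and 0.1560, 0.1734 and 0.1504, and 0.1502 and 0.4382, the last of these on 14 reads. ATIC was at 0.1751 and 0, 0.0694 and 0.1128, and 0.1684 and 0.1252. The groups of ADSL and ADSS overlapped, and both A771726 libraries of ATIC were above both leflunomide libraries. IMPDH2 was at 0.5252 and 0.1902 in DMSO, 0.4509 and 0.4273 after leflunomide, and 0.3508 and 0.0710 after A771726. PFAS was at 0 and 0.1040, 0.0922 and 0.0376, and 0.0241 and 0. GMPS was at 0.0480 and 0.0520 in DMSO and 0.0481 and 0 with A771726, and its leflunomide mean was 0.238, which could not be split into libraries. GMPS therefore had the highest leflunomide change of the set in group means, 1.92, with no library check. In A771726 library 2 the promoter was at 0 in 5 of 7 members with known order (ADSL, IMPDH1, PAICS, GMPS and PFAS), against 37.2% of 6188 genes. In library 1 it was at 0 in 0 of 7, against 9.26%.

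In promoters limma called 0 of 7 members in each comparison, against 0.197% of 5074 genes with leflunomide, 0.236% with A771726 and 0% between the compounds. At an unadjusted p below 0.05 these were 0, 1 and 0 members, the 1 being PAICS with A771726, against 2.23%, 3.59% and 2.44% of genes. With the downstream PAICS entry and the other IMPDH1 entry these were 0, 0 and 1, the 1 being PAICS between the compounds, at −2.67 (−5.05 to −0.30). Its unadjusted p was 0.0275 and its limma adjusted p 0.998. The PAICS call with A771726 set 3 and 0 reads against 8 and 9 in DMSO. The median over the 8 members was 0.15 with leflunomide (0.22 over 8838 genes), −0.71 with A771726 (0.00) and −0.79 between the compounds (−0.30). Each rested on 1 library, over the 6 members with known library order, and the median over 3660 genes moved as well. Without A771726 library 2 the medians with A771726 and between the compounds were 0.10 and 0.12 (0.30 and −0.02 over genes). Without A771726 library 1 they were −1.85 and −2.20 (−0.42 and −0.75). The leflunomide median was −0.63 without DMSO library 2 (−0.19). Both leflunomide libraries were above both DMSO libraries in 1 of 7 members, IMPDH1 (16.7% of genes), and below them in 1, PAICS (10.4%). Both A771726 libraries were above DMSO in 0 of 7 (10.5%) and below in 1, PAICS (15.5%). They were above leflunomide in 1 of 7, ATIC (7.88%), and below in 2, IMPDH2 and PFAS (22.1%). With leflunomide 2 members were 2-fold higher, IMPDH1 and GMPS (30.6% of genes), and 1 was 2-fold lower, PAICS (16% of genes). With A771726 none was 2-fold higher (20.8%) and 2 were lower, PAICS and PFAS (26%). A771726 against leflunomide gave 0 higher (13.5%) and 2 lower, GMPS and PFAS (30.6%).

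The traveling ratio, promoter over gene body density, sets polymerase near the start against polymerase in the gene body. The mean ratio of ADSS was 5.99 in DMSO, 4.50 with leflunomide and 10.6 with A771726. Its libraries were 5.36 and 6.61, 5.69 and 3.32, and 5.25 and 15.9, so 1 A771726 library carried the higher mean. IMPDH2 had the lowest DMSO ratio of the main entries, 1.01, then 1.503 and 1.04, with libraries of 1.39 and 0.627, 1.53 and 1.47, and 1.59 and 0.487. The leflunomide libraries of IMPDH2 were above both DMSO libraries, as in 22.5% of genes. PAICS (NM_006452) had means of 6.85, 1.46 and 0.824, whereas NM_001079524 had 3.27, 5.98 and 1.44. IMPDH1 had means of 2.23, 8.26 and 4.78 at NM_001142573 and 6.99, 4.05 and 0.609 at NM_000883. GMPS had 2.43, 12.1 and 1.41, ADSL 2.96, 3.17 and 2.59, ATIC 3.14, 3.46 and 6.62, and PFAS 2.21, 2.45 and 0.713. The tables hold no mean DMSO ratio above 7.5, so rows were selected on DMSO values. PAICS at 6.85 (NM_006452) and IMPDH1 at 6.99 (NM_000883) lay close to that limit.

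**Figure D4:**
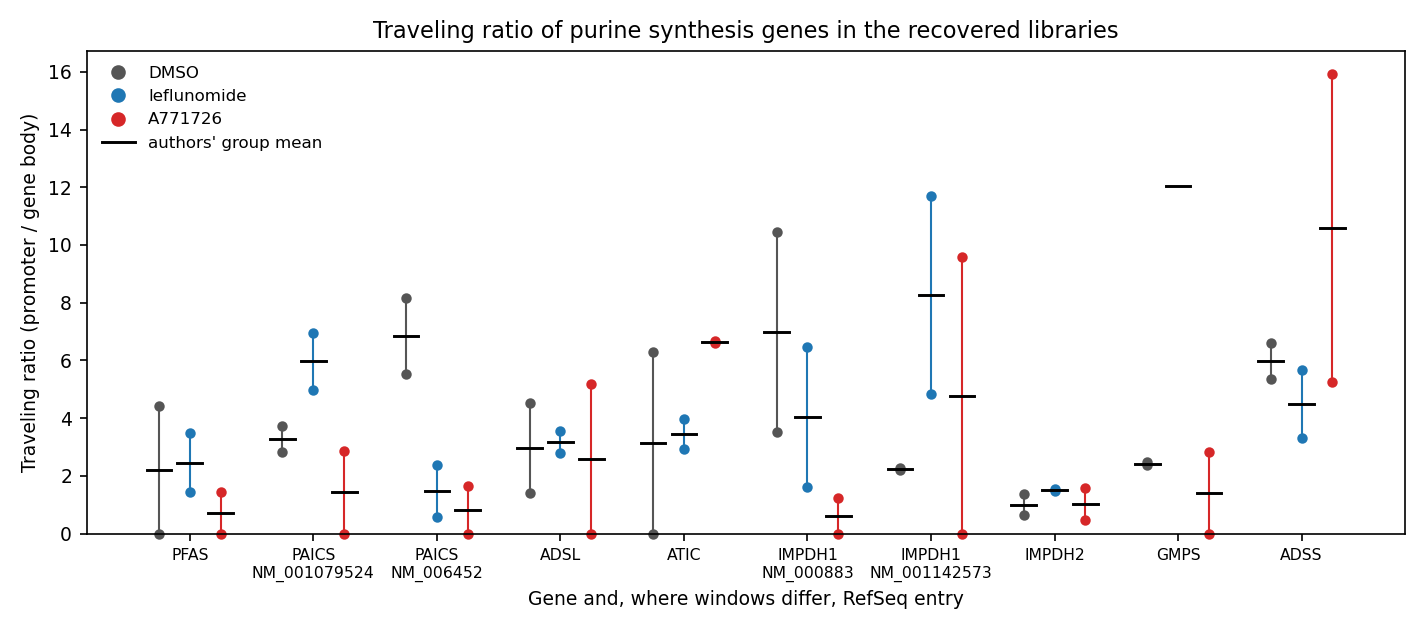
Traveling ratio (promoter density over gene body density) by gene and entry in the 2 recovered libraries of each group (points) with the authors' mean as a bar. The spread between libraries is wide in A771726, from 5.25 to 15.9 in ADSS, and 8 of the 10 sets of values have a library at 0.

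The authors' deposited table gives folds of the mean ratio over DMSO of 0.213 with leflunomide and 0.1203 with A771726 for PAICS NM_006452. For NM_001079524 the authors' deposited table gives 1.83 and 0.440. For GMPS the authors' deposited table gives 4.97 and 0.580. The median log2 change over the 8 members was 0.14 with leflunomide (0.27 over 5173 genes), −0.08 with A771726 (0.42) and −0.66 between the compounds (0.15). With leflunomide 2 members were 2-fold higher, GMPS and IMPDH1 (27.9% of genes), and 1 lower, PAICS (15.3%). With A771726 these were IMPDH1 and ATIC (34.6%), and PAICS and PFAS (17.1%). Between the compounds ADSS was higher (26.9%) and GMPS and PFAS were lower (20.9%). Only ADSS and IMPDH2 had no library at 0 and entered the test, in which limma called 0 of 2 members and 0% of 1762 genes in each comparison. At an unadjusted p below 0.05 it called 0 of 2 members, against 5.22%, 7.55% and 4.99% of genes. ADSS differed by 0.62 with A771726 (−1.26 to 2.50), with a limma adjusted p of 0.869.

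Around the pathway, 3 lists of genes were described in gene bodies, with 0 genes past the limma test in each comparison. Limma called 0 of all 4854 genes as well. Of 20 genes that supply phosphoribosyl pyrophosphate or one-carbon units, 10 passed the filter and 7 were tested. Of these 10 genes 6 were above the median gene with leflunomide and 9 with A771726, and the list medians were 0.03 and −0.38. MTHFD1L, a mitochondrial formate producer, was the 1 gene 2-fold lower in either compound. It was so with A771726, as were 18.5% of all genes. MTHFD1L was at 0.0241 and 0.0191 in DMSO and 0.0076 and 0.0104 with A771726, a difference of −1.09 in limma with an adjusted p of 0.173. MTHFD2 and SHMT2, mitochondrial enzymes of the one-carbon cycle, differed by 0.72 and −0.73 with leflunomide. Of 22 salvage and interconversion genes 14 passed the filter and 8 were tested. Of these 14 genes 8 and 9 were above the median gene, with list medians of −0.01 and −0.38. AK1, an adenylate kinase, differed by 0.79 with leflunomide and HPRT1, which salvages hypoxanthine and guanine, by 0.55. AMPD2 and AMPD3, which deaminate AMP, differed by 0.19 and 0.04 with A771726. Between the compounds 2 of the 14 genes were 2-fold lower with A771726, against 12.4% of all genes. These were AK1 by −1.19 and APRT, which salvages adenine, by −1.12, the latter named after its value was seen.

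Of the 5 pyrimidine synthesis genes 4 passed the filter and were tested, and 3 of these 4 were above the median gene in each compound, with list medians of 0.27 and −0.31. UMPS, which makes UMP from orotate, was at 0.0510 and 0.0808 in DMSO, 0.0318 and 0.0478 after leflunomide and 0.0287 and 0.0195 after A771726. Both UMPS libraries of each compound lay below both DMSO libraries, as in 20.9% of genes with leflunomide and 55.2% with A771726. The UMPS difference with A771726 was −1.36 in limma (−2.28 to −0.43), with an adjusted p of 0.155. DHODH, the enzyme that A771726 inhibits, was at 0.0136 and 0.0113 in DMSO, 0.0204 and 0.0186 after leflunomide and 0.0246 and 0.0087 after A771726. Its leflunomide libraries were above both DMSO libraries, as in 14.5% of genes. The difference was 0.57 (−0.49 to 1.63), with a limma adjusted p of 0.999. The purine median of −0.09 with leflunomide and −0.55 with A771726 stands beside these. No test compares the lists.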

How the data were processed

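GRO-seq was measured in 6 libraries, 2 for each of 3 groups. Per the submitters' processing notes, reads were aligned to hg18 with Bowtie 0.12.9 and handled with bedtools. The sources used here do not give window limits, scaling or depth. The authors deposited mean read density signal for promoters and gene bodies, and the mean traveling ratio and its fold, per the file headers, which write A771762, read as A771726. Each gene was represented by its row of highest mean gene body density, and genes below the 30th percentile of row means were left out. Changes are log2 of group means plus a pseudocount (0.0022 for gene bodies, 0.01735 for promoters), which understates the change of low genes. No pseudocount was added to ratios.

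Library values were recovered from the means, since library densities have 4 decimals and the mean ratio fixes the pair. A single solution was found for 89.9%, 94.0% and 94.5% of eligible rows in DMSO, leflunomide and A771726. Eligible rows, with a nonzero promoter mean and a finite ratio in that group, numbered 13020, 14506 and 13355 of the 22442 deposited. Genes not recovered in all 3 groups entered no limma test. Of the promoter values 79.4%, 78.3% and 80.2% were whole reads, within 1.5 steps of the last decimal. Limma 3.58.1 (trend, robust, R 4.3.3) was fitted on all 3 groups and was tested on simulated data. The labels call the replicates duplicates and name no separate cultures, so p-values measure the spread between these samples. The members, lists and tests were chosen with earlier results of these data known. Genes outside the set were named if called or at least 2-fold changed in gene bodies, or else as the pair per list farthest from the median gene in each compound. One result that this rule names is not reported here. Alternatives were another pseudocount, other filters, another entry per gene, centring, another variance model and leaving out each library.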

Additional observations from a re-analysis of the deposited data

How the results depend on the processing

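No paired analysis was possible because the columns carry no replicate letters, and the recovered libraries could not be matched to the labels' replicates. The number of members called was 0 in all 96 alternatives run, counted over settings, measures and comparisons. With few or no genes called anywhere, this says little about the members. The main fit called 0 of 4854 genes in gene bodies and at most 12 of 5074 in promoters. Of the alternatives to a member median 73 stayed within the spread between libraries and 14 did not. All 8 members passed each filter, so the filter settings could not change a median, yet they count among the 73. Most of the 14 set the ratio of ADSS alone against a median of 8 members. The tally therefore does not measure stability. Centring on the median gene brought the gene body median to −0.0265 with A771726 and −0.0029 between the compounds. With A771726, centring turned the gene body change of PFAS to 0.37, of ATIC and ADSS to 0.33 and of GMPS to 0.15. Between the compounds it turned that of IMPDH1 and ATIC to 0.26, of GMPS to 0.16 and of ADSS to 0.0669. Each library was left out in turn over 7 members in gene bodies, without IMPDH2, and over 6 in promoters, also without GMPS. The main medians are over 8 members. The gene body median then ran from −0.13 to −0.06 with leflunomide, −0.52 to −0.24 with A771726 and −0.46 to −0.29 between the compounds. Over 3496 genes it ran from −0.66 to −0.37 with A771726. The promoter median ran from −0.63 to 0.45, from −1.85 to 0.0952 and from −2.20 to 0.1193 in the same order. In gene bodies without A771726 library 1, limma called 14 of 3496 genes and 0 of 7 members with A771726. ADSS was the only member with a ratio above 0 in every library and a known library order. Its ratio change with leflunomide was −0.45 and between the compounds 1.07, alternatives chosen after seeing the data. With each library left out, the ratio change ran from −0.84 to −0.0666 with leflunomide, from −0.18 to 1.42 with A771726 and from 0.27 to 1.87 between the compounds. These changes were not tested for a cause. The depth of the libraries is not known, so promoters with under 20 reads limit what can be seen.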
